A study of Arabidopsis thaliana with 6 samples.

Results

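A set of 9 genes of the ethylene response factor (ERF) family was followed through somatic embryogenesis: ERF1B (AT3G23240), ERF98 (AT3G23230), ERF95 (AT3G23220), ORA59 (AT1G06160), ERF15 (AT2G31230), ERF14 (AT1G04370), ERF13 (AT2G44840), ERF1A (AT4G17500) and ERF6 (AT4G17490). They were chosen by their locus codes as ethylene- and jasmonate-related members of group IX of the family and make up 9 of the 1880 transcription factor rows measured by quantitative RT-PCR. Each code was found in 1 row, and all 9 rows lay in the first of 5 consecutive blocks of equal length. Col-0, the highly embryogenic wild type, was compared with tanmei (allele tan1-2), a mutant impaired in somatic embryogenesis. Both genotypes were sampled as freshly isolated explants (0 d), which were immature zygotic embryos at the late cotyledonary stage taken 10 to 12 days after pollination, and after 5 d and 10 d of culture on solid medium with 5 µM of the synthetic auxin 2,4-D. The 0 d explants had no culture on auxin, and there was no culture without auxin among these 6 groups. The mutant was represented by this allele alone, and its parental accession is not given in the sources used here. Each of the 6 groups has 1 value per gene, which is the authors' mean Ct over 3 replicates, so that no spread between replicates can be given and no difference below was tested.

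ERF proteins of group IX bind the GCC box, a short element in the promoters of many defence genes, and most of them activate transcription. In the ethylene pathway the hormone stabilises EIN3 and its relatives, and EIN3 switches on ERF1B directly. Jasmonate releases regulators from JAZ repressors, and ERF1B and ORA59 respond to both hormones together. In leaves and seedlings these genes are known for fast responses to pathogens, wounding and salt, and the auxin analog 2,4-D is itself an inducer of ethylene synthesis in plants.

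Ct is the PCR cycle at which the product crosses a fixed threshold, so that a Ct lower by 1 stands for 2-fold more transcript. The level of a gene is given here as the block median Ct minus the gene's Ct, a log2 value that is positive where the gene is more abundant than the median row. A difference between groups is the difference of these levels, and 2-fold is a log2 difference of 1. A row without a Ct was set to 40 cycles, and a difference that rests on it is a bound. Primer pairs differ in efficiency, so levels were compared between groups for 1 gene and not between genes. Explants and cultures were measured whole, and fewer cells of a type cannot be told apart from less RNA per cell.

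The median Ct of the block was 26.33, 25.26 and 24.43 in Col-0 at 0 d, 5 d and 10 d, and 25.11, 25.18 and 25.34 in tanmei. The median Ct of Col-0 thus fell by 1.06 cycles by 5 d and by 1.90 cycles by 10 d. That of tanmei rose by 0.07 and 0.22 cycles. In explants the Col-0 median lay 1.21 cycles above the tanmei median. Levels relative to the median therefore differ from raw Ct mainly in comparisons that hold Col-0 explants or the 10 d Col-0 culture. The fixed embryo markers were ABI3, FUS3, LEC2, LEC1 and L1L, of which the first 3 lie in this block. ABI3, a regulator of seed maturation whose code passed the comparison described next, stood 8.24, 6.46 and 4.87 above the median in Col-0 at the 3 times. In tanmei its levels at these times were 5.83, −0.50 and −5.69. FUS3, its partner in seed maturation, had levels of 6.23, 5.31 and 3.34 in Col-0 and of 6.82, −0.66 and −2.90 in tanmei. LEC2, the third embryo regulator of this type, was at −2.54, −2.48 and −2.81 in Col-0 and at −1.75, −7.41 and −8.24 in tanmei. The codes of FUS3 and LEC2 were not listed and are taken as deposited. The rows deposited as LEC1 and L1L lie in another block, where codes mostly failed the comparison, and Col-0 differed from tanmei there by 0.18 and 0.66 at 5 d and by −0.55 and 1.49 at 10 d. The part of these markers in the values of the ERF genes was not tested.

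Locus codes of the deposited rows were compared with a list of the study that gives levels for some of the genes. Listed levels and deposited Ct are on different scales, so an offset was fitted for each block and group. It was the median difference over rows linked by similar levels in the same order. All differences from listed levels are given after this offset. Over all families other than AP2/EREBP, the family that holds the ERF genes, 8 of 661 listed codes (1.2%) had levels within 1 cycle of the row with that code. In the AP2/EREBP family 58 of 71 listed codes (81.7%) did. ERF1B, ERF98, ORA59 and ERF13 were listed, and their rows differed from the listed levels by a root mean square of 0.32, 0.48, 0.35 and 0.37 cycles. Each of these 4 rows was the closest of all 1880 rows to its listed levels. For ORA59 the next closest row was at 0.71 cycles, a lead smaller than the 0.5 set for a clear link. The other 5 genes, ERF95, ERF15, ERF14, ERF1A and ERF6, were not listed, and the nearest listed AP2/EREBP rows on both sides of each were within 1 cycle. For ERF14, ERF1A and ERF6 these were rows 63 and 68. Row 63 carries a chromosome 1 code, as ERF14 does, and row 68 a chromosome 4 code, as ERF1A and ERF6 do. Only 1 flanking row of each of these genes thus belongs to its own run of codes, and a shift within 1 run could be missed. The codes of the 5 genes are taken as deposited on that basis. The 9 AP2/EREBP rows that missed their listed levels by 2 cycles or more lay between rows 210 and 286, where none of the 9 genes is found.

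A Ct in all 6 groups was obtained for 7 of the 9 genes, against 85.9% of all rows. Of the 54 values of these genes, 50 were a Ct. The 4 values without one belonged to ERF98 in Col-0 explants and to ERF95 in the 5 d cultures of both genotypes and the 10 d culture of Col-0. With a stricter limit of 35 cycles, 6 of the 9 genes were detected in all groups, against 74.2% of all rows. ERF14, ERF95 and ERF98 are the genes near the limit of the assay, and their single values deserve the least weight.

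**Figure D1:**
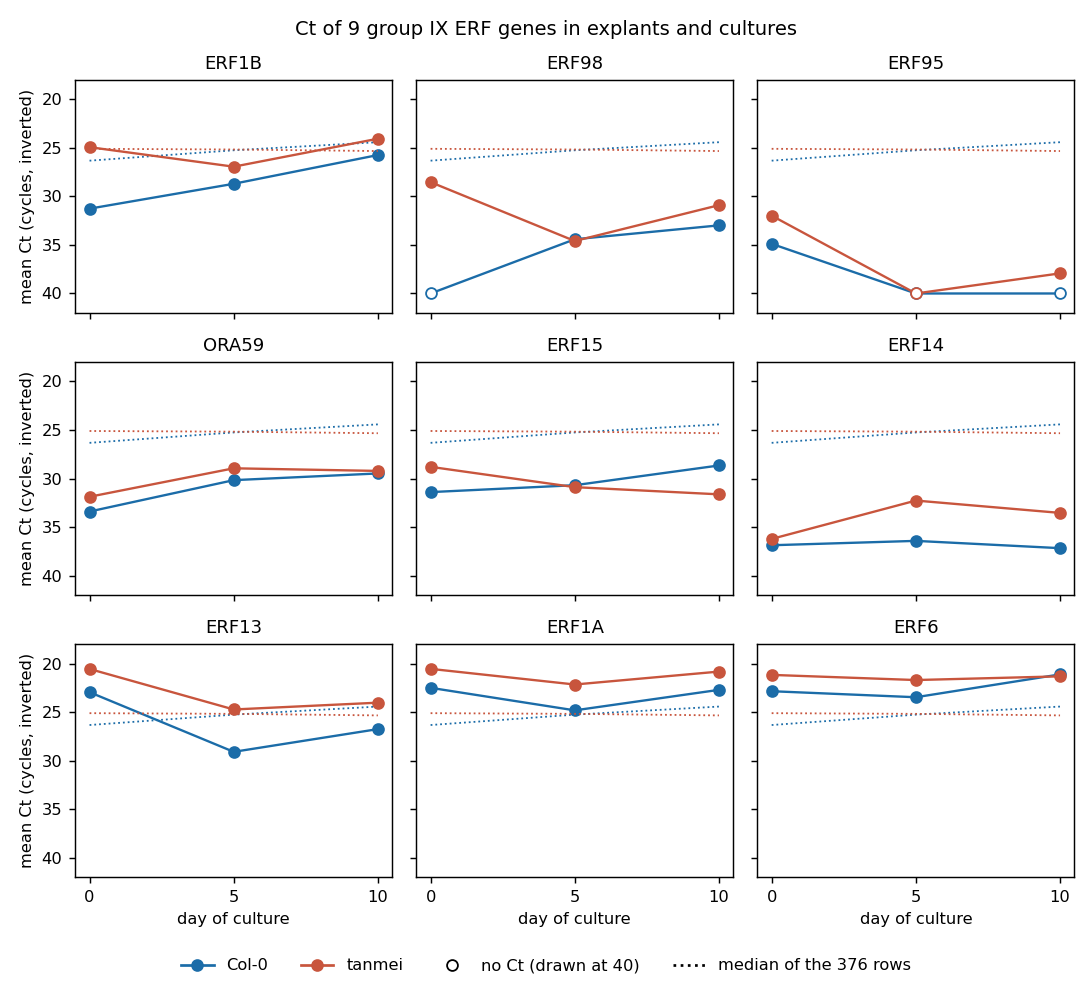
Mean Ct (vertical axis, cycles, inverted so that more transcript is higher) against day of culture for the 9 genes in Col-0 and tanmei, with the median of all rows of the block as dotted lines. Open circles have no Ct and are drawn at 40; ERF13 of Col-0 goes from 22.95 to 29.09 between 0 d and 5 d, and ERF1B of Col-0 from 31.27 to 25.75 between 0 d and 10 d.

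ERF1B, the target of EIN3 that relays ethylene and jasmonate signals to defence genes, had mean Ct values of 31.27, 28.71 and 25.75 in Col-0 at 0 d, 5 d and 10 d. In tanmei the values were 24.94, 26.95 and 24.07. The Col-0 explants were the lowest of the 6 groups and the 10 d culture of tanmei the highest, and Col-0 was below tanmei at each time. Relative to the block median, the Col-0 levels were −4.95, −3.45 and −1.32, and those of tanmei 0.17, −1.77 and 1.26. ERF1B was thus higher in Col-0 cultures than in explants by 1.5 at 5 d (2.83-fold) and by 3.63 at 10 d (12.3-fold). In tanmei it was 1.94 lower at 5 d than in explants and 1.09 higher at 10 d. In raw Ct the Col-0 differences from explants were 2.56 at 5 d and 5.52 at 10 d. The raw Ct difference at 10 d in tanmei was 0.87, under 2-fold. The widest gap between genotypes was in explants, where Col-0 was 34.7-fold below tanmei (log2 difference −5.12). The gap was −1.67 at 5 d and −2.59 at 10 d. The range over the 6 groups, 6.21, exceeded that of 86.1% of the 1615 rows with a Ct in all groups, for which the median range was 3.11.

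ERF98, a regulator of ascorbate synthesis and salt tolerance, lies next to ERF1B in the genome, with 0 annotated loci between them in TAIR10.1. No Ct was obtained in Col-0 explants, and the Col-0 cultures had 34.42 at 5 d and 32.99 at 10 d. The tanmei groups had 28.54, 34.60 and 30.91 at 0 d, 5 d and 10 d. ERF98 was therefore undetected in Col-0 explants and at its highest in tanmei explants, and the genotypes were close to each other at 5 d. In Col-0 it was higher than in explants by at least 4.51 at 5 d and at least 5.11 at 10 d, which is at least 22.8-fold at 5 d. In tanmei it was lower than in explants by 5.99 at 5 d (63.5-fold) and by 2.15 at 10 d. Between 5 d and 10 d it was 3.84 higher in tanmei and 0.60 higher in Col-0. In explants Col-0 was below tanmei by at least 10.25 on the log2 scale, which is at least 1210-fold. The genotype differences were 0.26 at 5 d and −2.99 at 10 d. The 5 d value of Col-0 has the decimals of a mean of 2 numbers and not of 3, and how many replicates stand behind it was not tested.

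ERF95, an ethylene- and salt-inducible activator, adjoins ERF98 on its other side, again with 0 loci between. It had a Ct of 34.89 in Col-0 explants and none in the Col-0 cultures. In tanmei it had 31.99 in explants, none at 5 d and 37.93 at 10 d. Both genotypes thus had the gene at its highest in explants, and it was lost or nearly lost in culture. Against explants, ERF95 was lower by at least 6.17 at 5 d (at least 72.0-fold) and at least 7.0 at 10 d in Col-0. In tanmei it was lower by at least 7.94 at 5 d and by 5.72 at 10 d (52.6-fold), and the 10 d value was at least 2.23 above that of 5 d. These bounds are relative to the block median. In raw Ct the bound in Col-0 was 5.11 at both times. Col-0 explants were 1.69 below tanmei explants, and at 10 d Col-0 was lower by at least 2.98 (2.9 and at least 2.07 in raw Ct). No genotype difference can be given at 5 d. The values of Col-0 explants and of the 10 d tanmei culture have the decimals of a mean of 2 numbers. The 3 adjoining genes did not share 1 pattern: ERF1B and ERF98 differed by a root mean square of 1.63 over the 6 groups after each was centred on its own mean, ERF98 and ERF95 by 4.20, and ERF1B and ERF95 by 3.91, with rows without a Ct at 40.

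ORA59, which integrates jasmonate and ethylene signals upstream of defensin genes, had Ct values of 33.40, 30.17 and 29.48 in Col-0 and of 31.88, 28.95 and 29.22 in tanmei. In both genotypes the explants were the lowest group and the 2 cultures lay close together. ORA59 was 2.16 above explants at 5 d and 2.02 at 10 d in Col-0, and 3.0 and 2.89 in tanmei. Between 5 d and 10 d ORA59 moved by −0.14 (Col-0) and −0.11 (tanmei). The genotypes differed by −0.30 in explants, −1.14 at 5 d and −1.17 at 10 d, with Col-0 lower. In raw Ct the 10 d difference was −0.26, so that this last value rests on the block median. Unlike ERF1B, with which it is known to share inducers, ORA59 was above explants in the cultures of both genotypes at both times.

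ERF15, a positive regulator of abscisic acid responses and of immunity, had Ct values of 31.40, 30.69 and 28.66 in Col-0 and of 28.80, 30.89 and 31.63 in tanmei. Col-0 explants lay below those of tanmei, the 5 d cultures were alike, and at 10 d Col-0 was above tanmei. In Col-0 ERF15 differed from explants by −0.36 at 5 d and by 0.84 at 10 d, both under 2-fold. In raw Ct these differences were 0.71 and 2.74. In tanmei ERF15 was lower than in explants by 2.02 at 5 d and 2.61 at 10 d. The genotype difference was −1.38 in explants, 0.29 at 5 d and 2.07 at 10 d. ERF15 at 10 d was the only value of the 9 genes in which Col-0 exceeded tanmei by 2-fold.

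ERF14, which acts upstream of other ERF genes and of defence genes, had high Ct values in Col-0, with 36.87, 36.42 and 37.17. The tanmei explants had 36.22, and the tanmei cultures had 32.27 at 5 d and 33.54 at 10 d. The 4 groups above 36 cycles lay close together, and the tanmei cultures stood apart from them. ERF14 was 4.02 above explants at 5 d (16.2-fold) and 2.90 at 10 d in tanmei. In Col-0 the differences were −0.61 and −2.19, and the raw Ct differences 0.45 and −0.30, so that the lower 10 d value of Col-0 comes from the shift of the block median. Col-0 was below tanmei by 4.07 at 5 d (16.8-fold) and by 4.53 at 10 d, and the explants differed by 0.56. All 6 values have no more decimals than a single Ct, and how many replicates stand behind them was not tested. This form was found in 65% of all values of 35 cycles or more and in 33.1% of those below 30. Each of the other genes had 1 to 3 such values, with 3 each for ERF1B and ERF13.

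ERF13, which binds the GCC box and affects abscisic acid sensitivity, had Ct values of 22.95, 29.09 and 26.75 in Col-0 and of 20.56, 24.73 and 24.03 in tanmei. Explants were the highest group in each genotype, the 5 d culture the lowest, and Col-0 was below tanmei at each time. Its levels were 3.38, −3.83 and −2.32 in Col-0 and 4.56, 0.45 and 1.31 in tanmei. ERF13 was lower than in explants by 7.21 at 5 d (149-fold) and by 5.70 at 10 d in Col-0, and by 4.11 and 3.25 in tanmei. Between 5 d and 10 d it was 1.51 higher in Col-0 and 0.86 higher in tanmei. Col-0 was below tanmei by 1.18 in explants, 4.28 at 5 d (19.4-fold) and 3.63 at 10 d. Its range over the 6 groups, 8.39, exceeded that of 95% of the 1615 rows with a Ct in all groups.

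ERF1A, a GCC-box activator induced by pathogens and jasmonate, had Ct values of 22.50, 24.82 and 22.71 in Col-0 and of 20.55, 22.16 and 20.83 in tanmei. The 5 d culture was the lowest group of each genotype, and every tanmei group lay above the Col-0 group of its time. ERF1A was 3.39 below explants at 5 d (10.5-fold) and 2.11 at 10 d in Col-0. In raw Ct the 10 d difference was −0.21. In tanmei it was 1.55 below explants at 5 d and within 0.05 at 10 d. The genotypes differed by −0.73 in explants, −2.57 at 5 d and −2.79 at 10 d. ERF6, a substrate of stress-activated MAP kinases, adjoins ERF1A with 0 loci between and had Ct values of 22.85, 23.47 and 21.12 in Col-0 and of 21.17, 21.70 and 21.32 in tanmei. It varied less than most rows, with a range of 2.23 that exceeded that of 31.4% of rows. ERF6 was 1.69 below explants in the 5 d Col-0 culture, where raw Ct gave −0.62, and −0.17 from explants at 10 d, where raw Ct gave 1.73. In tanmei the differences were −0.46 and 0.08. Col-0 was below tanmei by 0.46, 1.68 and 0.71 at the 3 times, and the sign at 10 d turned in raw Ct (0.20). ERF1A and ERF6 had the smallest root mean square difference of any pair of the 9 genes, 0.88, above the 0.5 used below for similar rows. This measure is not scaled by range, so it tends to be smaller for genes that vary little, such as ERF6.

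Against explants, 3 of the 9 genes were at least 2-fold higher and 4 at least 2-fold lower in the 5 d culture of Col-0. Over all rows with a Ct in at least 1 of both groups, 28.9% were higher and 38.0% lower. ERF1B, ERF98 and ORA59 were the higher genes, and ERF95, ERF13, ERF1A and ERF6 the lower ones. At 10 d 3 genes were higher and 4 lower, against 29.0% and 41.1% of all rows. ERF1B, ERF98 and ORA59 were again the higher genes, and ERF14 stood in place of ERF6 among the lower ones. In raw Ct, 3 genes were higher and 3 lower at 5 d, against 35.7% and 28.1% of all rows. At 10 d 5 were higher and 2 lower in raw Ct, against 43.1% and 21.9% of all rows, and ERF15 and ERF6 joined the higher genes and ERF14 and ERF1A left the lower ones. Both comparisons share the explant value. The median difference of the 9 genes was −0.61 at 5 d and −0.17 at 10 d, and that of all rows was −0.37 in both. Between 5 d and 10 d in Col-0, 5 of the 8 genes with a Ct were higher (ERF1B, ERF15, ERF13, ERF1A and ERF6) and ERF14 was lower, against 17.4% and 18.1% of all rows. The median of the 8 genes in this comparison was 1.24, and that of all rows −0.09. In raw Ct 6 genes were higher and 0 lower, against 29.1% and 9.53% of all rows.

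In tanmei at 5 d, 2 of the 9 genes exceeded explants by 2-fold or more (ORA59 and ERF14) and 6 were lower (ERF1B, ERF98, ERF95, ERF15, ERF13 and ERF1A), against 28.7% and 39.4% of all rows. The median of the 9 genes was −1.94, and that of all rows −0.44. At 10 d 3 genes were higher (ERF1B, ORA59 and ERF14) and 4 lower (ERF98, ERF95, ERF15 and ERF13), against 31.1% and 37.4%. ERF1B was not among the higher genes in raw Ct, which left 2 higher and 4 lower, against 26.9% and 46.4% of all rows. From 5 d to 10 d 4 genes were higher (ERF1B, ERF98, ERF95 and ERF1A) and ERF14 was lower, against 20.0% and 15.6%. ORA59 was at least 2-fold above explants, and ERF95 and ERF13 at least 2-fold below, at both times in both genotypes. The shares of all rows that did so at both times in both genotypes were not counted.

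**Figure D2:**
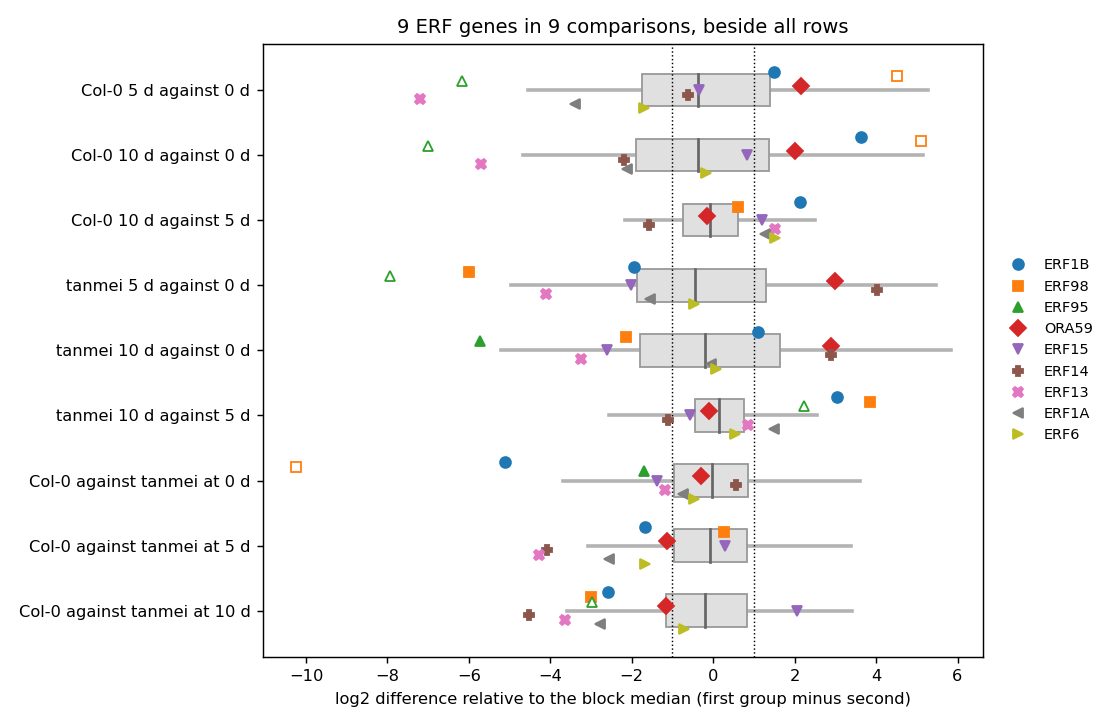
Log2 difference relative to the block median (horizontal axis, first group minus second) in the 9 comparisons for the 9 genes (symbols, open where the value is a bound) beside all rows with a Ct (box from the 25th to the 75th percentile with the median, line from the 5th to the 95th). Dotted lines mark 2-fold; in the 3 comparisons of Col-0 with tanmei only ERF15 at 10 d lies beyond the upper one.

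Col-0 explants were at least 2-fold below tanmei explants in 5 of the 9 genes (ERF1B, ERF98, ERF95, ERF15 and ERF13) and above in 0, against 24.6% and 22.0% of all rows. At 5 d 6 of 8 genes were lower in Col-0 (ERF1B, ORA59, ERF14, ERF13, ERF1A and ERF6) and 0 higher, against 24.1% and 22.1%. At 10 d 7 of 9 were lower (ERF1B, ERF98, ERF95, ORA59, ERF14, ERF13 and ERF1A) and ERF15 was higher, against 28.7% and 22.4%. Relative to the block median, only ERF1B and ERF13 of the 9 genes lay 2-fold or more below tanmei at all 3 times. ERF1A joined them in raw Ct (−1.94, −2.65 and −1.88), and with the median of rows with a Ct in all groups its explant difference was −1.08. The share of all rows that lay below tanmei at all 3 times was not counted. The median genotype difference of the 9 genes was −1.18 in explants and −2.79 at 10 d, and that of the 8 genes with a Ct at 5 d was −1.68, where all rows had −0.02, −0.21 and −0.08. Of the AP2/EREBP rows, 28.2%, 33.3% and 36.8% were lower in Col-0 at the 3 times and 26.1%, 19.1% and 18.1% higher. In raw Ct, Col-0 explants lay 2-fold or more below tanmei explants in 8 of the 9 genes and above in 0, where 44.5% of all rows were lower and 11.9% higher.

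The difference between cultures and explants was set side by side in both genotypes, which do not share samples. At 5 d ERF1B, at 5 d and 10 d ERF98, and at 10 d ERF14 passed 2-fold in opposite directions. The share of all rows that did so was not counted. ERF1B stood at 1.5 in Col-0 and −1.94 in tanmei at 5 d, and ERF98 at no less than 4.51 in Col-0 and −5.99 in tanmei. At 10 d ERF98 stood at no less than 5.11 and at −2.15, and ERF14 at −2.19 and 2.90. The explants of tanmei had 24.94 cycles for ERF1B and 28.54 for ERF98, and those of Col-0 had 31.27 for ERF1B and no Ct for ERF98. For ERF13, ERF1A and ERF6 the differences pointed the same way at 5 d, and those of Col-0 were more negative by 3.10, 1.84 and 1.23. In raw Ct these gaps were 1.97, 0.71 and 0.09, so that those of ERF1A and ERF6 were under 2-fold. ERF15 stood at 0.84 (Col-0) and −2.61 (tanmei) at 10 d. Under each of the 4 other scalings ERF15 at 10 d also passed 2-fold in opposite directions, with 1.06 to 2.74 in Col-0 and −2.12 to −2.83 in tanmei. With 1 mean per group the difference between genotypes has no error.

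**Figure D3:**
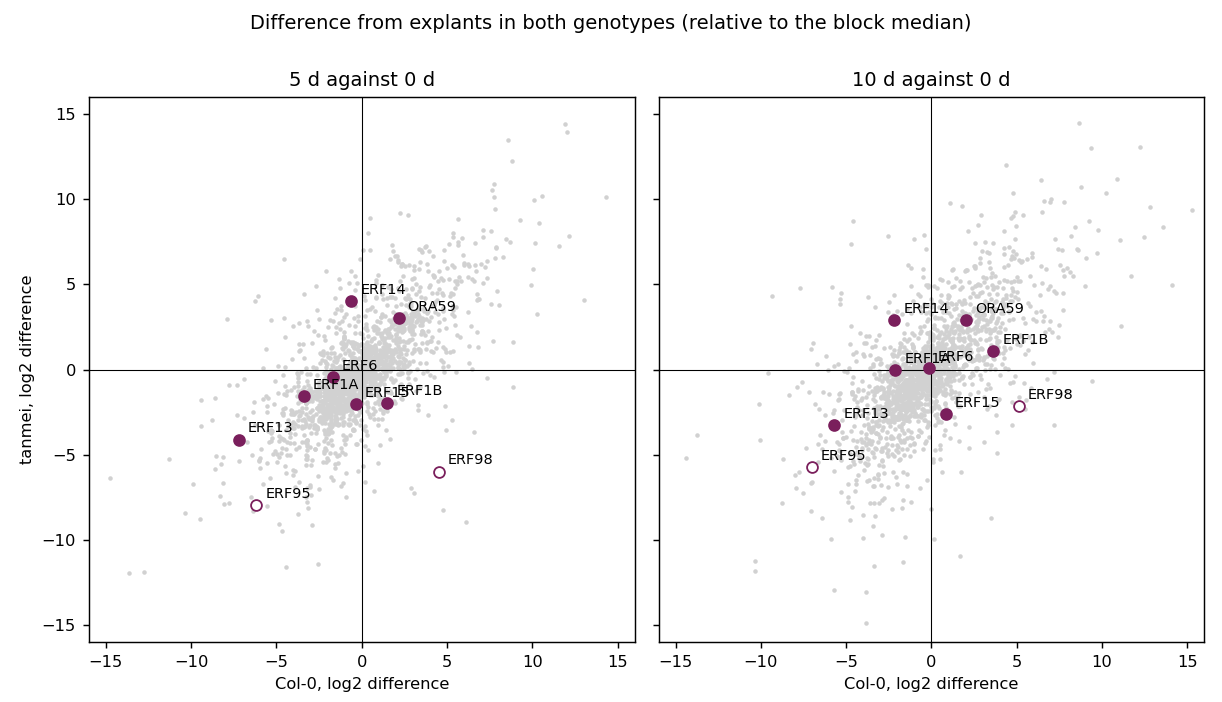
Log2 difference from explants in Col-0 (horizontal axis) and tanmei (vertical axis), relative to the block median, at 5 d and at 10 d, for all rows with a Ct in both comparisons (grey; 3 and 2 rows lie outside the axes) and the 9 genes (labelled, open where a value is a bound). ERF98 lies at the lower right of both panels, with at least 4.51 in Col-0 and −5.99 in tanmei at 5 d.

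For each gene with a Ct in all groups, the row with the most similar pattern was sought among 1614 rows, after each row was centred on its own mean over the 6 groups. For ERF1B it was AT3G60490, another AP2/EREBP gene, at a root mean square difference of 0.46. For ERF6 it was the row of ERF53 (AT2G20880), a drought-related AP2/EREBP gene, at 0.21. For ORA59 (0.19), ERF15 (0.30) and ERF1A (0.43) the nearest rows carried codes of other families (AT1G20696, AT2G36400 and AT3G09230), and codes of such families mostly missed their listed levels. ERF14 and ERF13 had no row closer than 0.5.

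A further 8 group IX codes were in the table, so that 17 of them could be seen together. In the 5 d culture of Col-0, 2 of the 8 were at least 2-fold above explants and 4 below, where all rows had 28.9% and 38.0%, and the counts were the same at 10 d, where all rows had 29.0% and 41.1%. In tanmei 3 were above and 4 below at 5 d (28.7% and 39.4% of all rows), and 2 above and 3 below at 10 d (31.1% and 37.4%). ERF091, whose row was 0.23 cycles from its listed levels, had Ct values of 35.77, 27.38 and 26.93 in Col-0 and of 31.17, 25.88 and 28.56 in tanmei. It was 7.32 above explants at 5 d and 6.94 at 10 d in Col-0, more than any other of the 17 codes apart from ERF98, which has only a lower bound, and had 5.36 and 2.83 in tanmei. ERF096, a short relative of ERF98 and ERF95, was 9.46 lower than in explants at 5 d and 8.77 lower at 10 d in Col-0 (7.24 and 6.24 in raw Ct). Its row lies in the fifth block, its code was not listed, and it was the closest row to the listed levels of JAZ7 (0.83 cycles), so these values are given under the deposited code only. The levels of ERF2, ERF5 and ERF105 were not in the list, and their rows end directly before the first row of the stretch of failed codes, so their codes are unchecked. A further list of the study places the code of ERF2 among genes without a signal in tanmei explants, and the deposited row has a Ct there. ERF5, a close relative of ERF6, was lower by 3.04 and 2.75 in Col-0 and by 3.26 and 1.65 in tanmei. ERF2, a close relative of ERF1A, stayed under 2-fold in all 4 comparisons. ERF105 was lower by 3.64 and 5.10 in Col-0, and by 1.71 and 0.07 in tanmei. The rows of ERF107 and ERF104 lie in the stretch where codes failed the comparison. The row of ERF107 missed its listed levels by 3.09 cycles, and the row deposited as ERF104 came within 0.27 of them. Values of these 2 rows are therefore not assigned to a gene, although they enter the counts under their codes. Between the genotypes, 1 of the 8 codes passed 2-fold with Col-0 higher in explants and 2 with Col-0 lower (22.0% and 24.6% of all rows). At 5 d 1 was higher and 3 were lower (22.1% and 24.1%), and at 10 d 0 were higher and 2 lower (22.4% and 28.7%).

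**Figure D4:**
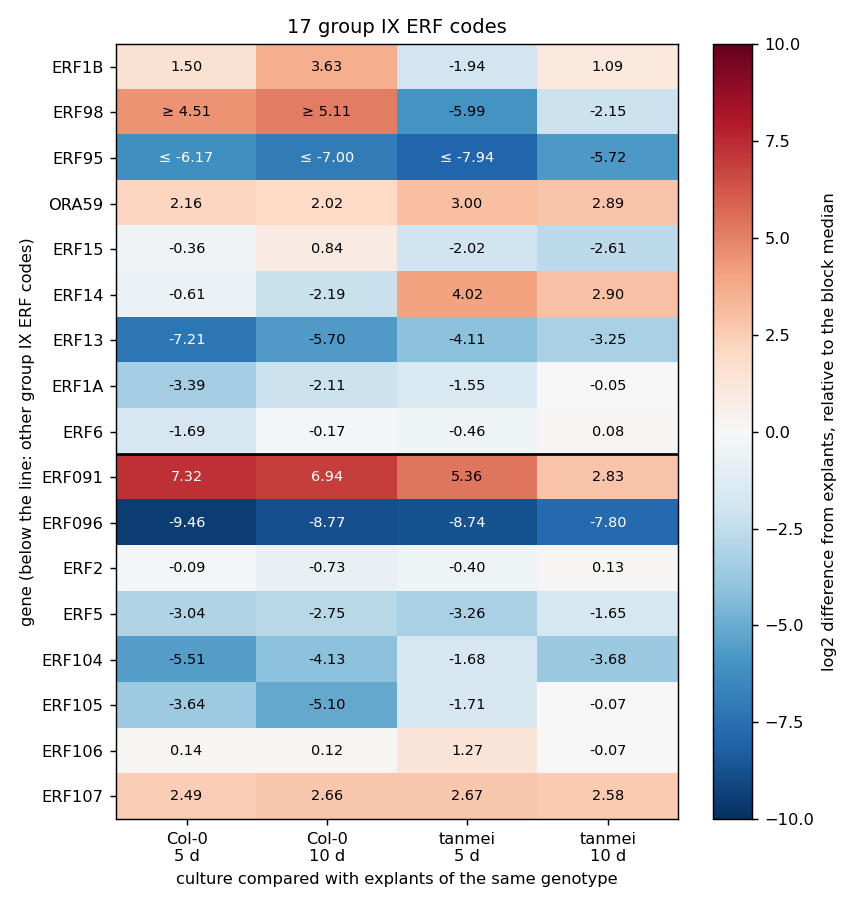
Log2 difference from explants of the same genotype, relative to the block median (colour and printed value), for 17 group IX codes in both cultures of each genotype. The 9 genes described here stand above the black line, and values with a sign of inequality are bounds; ERF091 has 7.32 and 5.36 at 5 d, and ERF13 has −7.21 and −4.11.

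Rows with codes of the upstream pathway could be counted but not assigned to genes. Of the codes of the EIN3 family, of the jasmonate-related bHLH regulators and of the JAZ repressors that were listed (2, 3 and 6 codes), 0 came within 1 cycle of their rows. Under the deposited codes, 4 of 5 EIN3 family rows were at least 2-fold above explants and 1 below in Col-0 at 5 d, and 1 and 1 at 10 d. All rows had 28.9% above and 38.0% below at 5 d, and 29.0% and 41.1% at 10 d, for these lists too. Of the 6 bHLH rows, 2 were above and 2 below at 5 d, and 1 and 3 at 10 d. Of the 12 JAZ rows, 7 were above and 3 below at 5 d, and 7 and 4 at 10 d. The codes of endosperm and seed coat markers were no better placed, since 0 of the 1 listed endosperm code and 0 of the 1 listed seed coat code matched, so that the other tissues of the seed were not measured by rows with a checked code.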

How the data were processed

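Total RNA of Col-0 and tanmei explants and cultures was measured by SYBR Green quantitative RT-PCR with gene-specific primers. The deposited matrix holds Ct (a unit of its own, cycles), averaged by the authors over 3 replicates and not scaled to the reference gene UBQ. Sequencing depth does not apply to PCR, and no error of a mean can be computed. A second deposited table holds only the authors' own fold changes between groups and was not used. Here the median of each of 5 consecutive blocks of rows of equal length was subtracted per group, values without a Ct were set to 40, and differences of 2-fold or more were counted without a test. Locus codes were checked against levels listed by the study (root mean square within 1 cycle after an offset fitted per block and group). In RefSeq (TAIR10.1), 17 of 17 group IX codes were found. The genes and lists (other group IX, EIN3 family, jasmonate bHLH, JAZ, embryo, endosperm and seed coat markers) were chosen with earlier results of these data known. Besides the 9 genes, the text names the most similar row where it lies within 0.5, list genes past 2-fold in both Col-0 cultures, and the embryo markers. ERF2, ERF5 and ERF107 were named after their values were seen, and pathway rows with unchecked codes were counted but not named. Counts were repeated with 7 alternatives. The scripts (Python 3.11.15, pandas 2.3.3, numpy 2.4.6) were tested on simulated data.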

Additional observations from a re-analysis of the deposited data

Results flagged for a closer look

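Of the differences between cultures and explants, 4 passed 2-fold in opposite directions in the genotypes, and the difference between genotypes was not tested, since each group has 1 mean. The share of all rows that passed in opposite directions was not counted, so whether 4 is many or few cannot be said. ERF1B at 5 d stood at 1.5 (Col-0) and −1.94 (tanmei), a difference of 3.44. ERF98 at 5 d was at least 4.51 in Col-0 and −5.99 in tanmei, a difference of at least 10.5 that rests on Col-0 explants without a Ct. ERF98 at 10 d was at least 5.11 in Col-0 and −2.15 in tanmei, a difference of at least 7.26. ERF14 at 10 d stood at −2.19 (Col-0) and 2.90 (tanmei), a difference of −5.10, and its raw Ct difference in Col-0 was −0.30. ERF15 at 10 d was −2.61 in tanmei and, with 0.84, under 2-fold in Col-0, but the other 4 scalings gave 1.06 to 2.74 in Col-0, so that which genes pass here depends on the scaling.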

How the results depend on the processing

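With 10-fold in place of 2-fold, 4 of the 9 genes passed at 5 d and 4 at 10 d against explants in Col-0, 4 and 1 in tanmei, 0 between 5 d and 10 d in Col-0 and 1 in tanmei, and 2 between genotypes at each time. Of all rows, 21.2% and 24.0% passed 10-fold against explants in Col-0, 22.8% and 26.2% in tanmei, 4.41% and 5.65% between 5 d and 10 d, and 11.9%, 9.02% and 11.3% between genotypes. With raw Ct, 8 genes passed 2-fold between the explants of both genotypes, where the block median gave 5. Under the other scalings (median of rows with a Ct in all groups, of rows below 30 cycles, of the whole table), with genes that have a Ct in both groups, and with the stricter limit of 35 cycles, the counts stayed within 1.5 times. Of 79 single differences, 12 crossed 2-fold in raw Ct, 4 with the median of the whole table, 3 with that of rows below 30 cycles and 2 with that of rows with a Ct in all groups, and 0 of those past 2-fold changed sign. Sizes shifted as well. In Col-0 against explants, raw Ct and block-median differences of each gene lay 1.06 apart at 5 d and 1.90 at 10 d. For ERF1B the 10 d value was 3.63 with the block median, 4.68 with that of the whole table and 5.52 in raw Ct. Rows linked to the levels of the study's list gave the same values, but this setting could not change them. The 4 listed genes were linked, if at all, to their own rows, and the others had no listed levels. No paired analysis was possible because each group has 1 mean and no replicate values, and leaving out a replicate could not be done for the same reason. A mean Ct above 35 has few template copies behind it, which touches ERF14 and ERF95. ERF98 had no Ct in Col-0 explants, and its 5 d means were 34.42 in Col-0 and 34.60 in tanmei.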
